A study of Mus musculus with 4 samples.

Results

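Integrins are the receptors by which a cell holds its extracellular matrix, and each is a dimer of an alpha and a beta subunit. The integrin subunits described here are 10 genes, *Itga1*, *Itga5*, *Itga7*, *Itga8*, *Itga11*, *Itgav*, *Itgb1*, *Itgb3*, *Itgb5* and *Itgb8*, picked by name from the 48587 gene symbols of the count table, a rule that uses no measured value. All 10 were found and all 10 were among the 18916 genes that passed the filter on low counts. Integrin genes outside this set, 17 in number, served for comparison.

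The data are poly-A mRNA-seq of primary mouse vascular smooth muscle cells (VSMCs), the contractile cells of the artery wall. Cells carried a lentiviral short hairpin RNA, either shCTR (a control hairpin aimed at a plant microRNA sequence) or shMettl14, a hairpin against *Mettl14*. METTL14 is a subunit of the complex that writes N6-methyladenosine (m6A) into mRNA, and the comparison asks which transcripts differ in level when it is depleted. Each hairpin has 2 libraries, lettered A and B. The cells grew out of explants of the descending aorta of C57BL/6J mice after removal of the adventitia and scraping of the endothelium, were used after several passages, and were collected in the days after transduction. Both groups thus carried a lentiviral hairpin and were grown in the same way, and only 1 hairpin stands for the knockdown. Neither the sources nor the headers say whether a letter marks an animal, a culture or a day. The p-values below therefore measure the spread between these libraries, which may be technical. The libraries held 114343653 to 124815868 counts, a depth at which 3 counts amount to 0.0240 to 0.0262 CPM (counts scaled to the library's total, which for the CPM values below was also normalized by trimmed mean of M values, TMM), so none of the members was limited by counting.

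The cultures matched their labels in part. *Mettl14* had 2050 and 2154 counts in shCTR A and B and 546 and 568 in shMettl14 A and B, a log2 fold change of -2.08 ± 0.25 (SE), with an adjusted p of 1.0 in the quasi-likelihood test of edgeR (Benjamini-Hochberg adjustment) and of 1.7e-09 in DESeq2. The adjusted p in edgeR's test was 1.0 for each tested gene named below as well, so a missing call in that fit does not show that a gene did not differ. All 10 smooth muscle markers were detected, and their summed level was 7002 and 5875 CPM in shCTR against 4571 and 4908 CPM in shMettl14. All 10 endothelial markers were detected as well, none was at 0, and they summed to 2094 and 4160 CPM in shCTR and to 1952 and 2665 CPM in shMettl14. *Cdh5*, the adhesion molecule of endothelial junctions, alone reached 508 to 818 CPM. The 9 leukocyte markers used summed to 11.5 to 15.5 CPM, and *Cd3e*, *Tyrobp* and *Cd52* were at 0 in 3 of the 4 libraries. In bulk RNA, fewer cells of a type cannot be told apart from less RNA per cell, and the part that endothelial RNA takes in the integrin values was not tested.

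An alpha subunit sets which ligand is held. The products of *Itga1* and *Itga11* bind collagens, that of *Itga7* binds laminins, and those of *Itga5*, *Itga8* and *Itgav* bind proteins with an arginine-glycine-aspartate (RGD) motif such as fibronectin, nephronectin and vitronectin. All of these alpha subunits pair with the product of *Itgb1*, while *Itgav* also pairs with those of *Itgb3*, *Itgb5* and *Itgb8*. Smooth muscle cells use these receptors to anchor to the basement membrane and to pull on the matrix, and the receptors are best known in arteries for their part in migration and in remodelling after injury.

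The m6A writer complex methylates adenosines within short motifs, of which GGACT is the commonest form in mRNA, often close to the stop codon. The coding transcripts of all 10 members in GENCODE M21 (GRCm38) held these letters at least once, *Itgb1* only in its 3′ untranslated region. The 5 stretches printed here belong to the 3 members whose hairpin groups did not overlap (*Itga1*, *Itga7* and *Itgb8*) and to the pair whose GGACT lay closest to the stop codon (*Itgb3* and *Itgb5*). They run 5′ to 3′ along the mRNA, and the capitals mark GGACT.
Itga1: cgcctttgcgGGACTcctgctgtta
Itga7: acgtgactctGGACTgcgcccaggg
Itgb8: gaaccacagaGGACTcaaaggacag
Itgb3: acctaccgggGGACTtaatgagacc
Itgb5: ggcgtgccttGGACTtcctggacca
All 5 lie in coding sequence. The motif nearest the stop codon lay in the 3′ untranslated region in the members not printed (*Itga5*, *Itga8*, *Itga11*, *Itgav* and *Itgb1*). It started 63 (*Itga5*) to 465 (*Itga8*) bases past the start of the stop codon. In *Itgb3* the motif at chr11:104667138-104667142 (plus strand, exon 15 of 15) ends at the base before the stop codon, and in *Itgb5* the motif at chr16:33948804-33948808 (plus strand, exon 15 of 15) starts 26 bases ahead of it. The *Itga1* motif at chr13:114965635-114965639 (minus strand, exon 28 of 29) starts 84 bases ahead of the stop codon. In *Itgb8* the nearest motif, at chr12:119170901-119170905 (minus strand, exon 10 of 14), starts 876 bases ahead. That of *Itga7* is made by a splice junction between exons 21 and 22 of 25, and starts 568 bases ahead of the stop codon.

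The number of motifs differed between the members. *Itgb3* had 6 in its coding sequence and 3 in its 3′ untranslated region, and *Itgb5* had 6 and 0. *Itga1* held 5 and 7 and *Itgav* 5 and 8, *Itgb8* held 2 and 1, and *Itgb1* had 0 in its coding sequence and 2 beyond it. Per kilobase of coding sequence the members ran from 0 (*Itgb1*) to 2.54 (*Itgb3*) against a median of 1.08 over 14346 tested genes with a coding transcript, of which 77.2% had at least 1 motif there. Per kilobase of 3′ untranslated region they ran from 0 (*Itga7* and *Itgb5*) to 3.12 (*Itga11*). The median was 0.644 over 13834 tested genes with at least 50 bases there, of which 59.6% had a motif in that region. A match of letters is not a measured m6A site, and no methylation was measured in these libraries.

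None of the 10 members passed an adjusted p of 0.05 in edgeR's quasi-likelihood test, and the share of genes called over all 18916 tested was 0%, the targeted gene included. By the unadjusted p of that test, too, no member was under 0.05, against 1.67% of all genes (315). In an edgeR fit with the letters as a block, 4 members were (*Itgb8*, *Itga1*, *Itga7* and *Itgb5*), against 10.3% of all genes. None of them passed the adjusted threshold there. DESeq2 gave 1 member an unadjusted p under 0.05, *Itgb8*, against 2.05% of all genes. In the fitted model 3 members were above and 7 below the control, with a median log2 fold change of -0.16 against 0.01 over all tested genes. What follows gives each member's values in the 4 libraries, in CPM, and then the ratio within each letter.

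**Figure D1:**
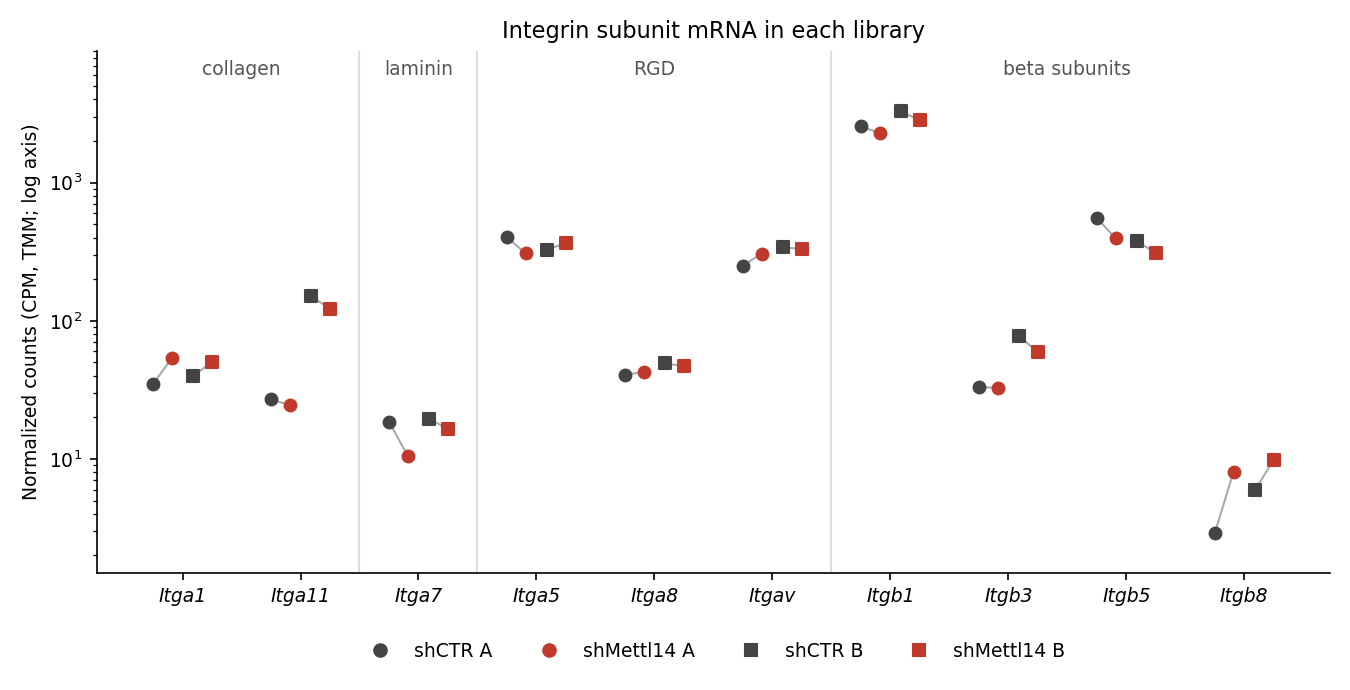
Normalized counts (CPM, log axis) of the 10 integrin subunits in each of the 4 libraries, grouped by ligand class. Circles are letter A and squares letter B, grey is shCTR and red shMettl14, and lines join the libraries of a letter. *Itga1* and *Itgb8* have both red points above both grey ones, *Itga7* has both below, and *Itga11* and *Itgb3* separate by letter.

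Among the beta subunits, *Itgb8* (chr12:119158022-119238802, minus strand) had the largest fold change of the set. Its product pairs only with that of *Itgav* and is known for binding the latent form of transforming growth factor beta. It had 329 counts in shCTR A, 640 in shCTR B, 962 in shMettl14 A and 1283 in shMettl14 B, or 2.90, 5.93, 8.10 and 9.86 CPM. Both knockdown libraries were above both controls. The group means were 4.41 ± 2.14 CPM (SD, n = 2) in shCTR and 8.98 ± 1.25 CPM (SD, n = 2) in shMettl14. Letter A gave a fold of 2.79 and letter B one of 1.66. The fitted log2 fold change was 1.03 ± 0.44 (SE), or 2.04-fold, with an unadjusted p of 0.066 in edgeR's quasi-likelihood test and of 0.029 in DESeq2, and an adjusted p of 1.0 in both tools. With 1 library left out, the log2 fold change ran from 0.60 (without shCTR A) to 1.63 (without shCTR B). Of all genes tested, 4.42% had a log2 fold change of 1 or more. The controls alone differed by 2.04-fold, with B above A. *Itgb8* thus separated the groups, and its difference between hairpins was as large as the difference between the control libraries.

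*Itgb1* (chr8:128685654-128733200, plus strand), the shared partner of most alpha subunits, was the most abundant member at 2548 and 3282 CPM in shCTR and 2282 and 2821 CPM in shMettl14. It was lower with the knockdown within each letter, with log2 ratios of -0.16 and -0.22, but the groups overlapped. Its log2 fold change was -0.19 ± 0.23 (SE). *Itgb1* alone took 65.1% to 70.3% of all counts of the 10 members.

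*Itgb5* (chr16:33829665-33949338, plus strand), a partner of *Itgav* that binds vitronectin, had 556 and 376 CPM in shCTR and 394 and 310 CPM in shMettl14. Here letter A was the higher of the letters in each group, and the shMettl14 value of letter A was above the shCTR value of letter B. The log2 ratio was -0.50 in letter A and -0.28 in letter B, and the fitted log2 fold change was -0.40 ± 0.28 (SE). *Itgb3* (chr11:104608000-104670476, plus strand), the beta subunit of the platelet fibrinogen receptor and of a vitronectin receptor of smooth muscle, had 33.1 and 77.9 CPM in shCTR and 32.8 and 59.0 CPM in shMettl14. Within letter A it was only marginally lower with the knockdown (log2 ratio of -0.01), and within letter B it was lower by more (log2 ratio of -0.40). Its fitted log2 fold change, -0.27 ± 0.50 (SE), turned positive when shCTR B was left out (0.47) or when shMettl14 A was left out (0.09).

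The collagen receptor subunits, *Itga1* and *Itga11*, differed in level per exon length and in direction within both letters. A difference between these genes was not tested. Between hairpins, neither passed the adjusted threshold in edgeR's quasi-likelihood test. *Itga1* (chr13:114953096-115101964, minus strand) had 34.9 and 39.8 CPM in shCTR against 53.7 and 50.3 CPM in shMettl14. Both knockdown libraries were above both controls, with means of 37.3 ± 3.45 CPM (SD, n = 2) and 52.0 ± 2.39 CPM (SD, n = 2). The difference of the means exceeded the SD of either group. Letter A gave a fold of 1.54 and letter B one of 1.27, and the fitted log2 fold change was 0.48 ± 0.20 (SE), with an unadjusted p of 0.059 and an adjusted p of 1.0 in edgeR's quasi-likelihood test. Of the exon bases of *Itga1*, 3.68% are shared with the same-strand gene *Gm49395*. Genes on the opposite strand overlap 5.05% of those of *Itga8* and 5.90% of those of *Itgav*, and the strand setting of the counting is not given in the sources used here.

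*Itga11* (chr9:62677826-62783982, plus strand), a collagen receptor found on mesenchymal cells, had 26.9 and 151 CPM in shCTR and 24.5 and 121 CPM in shMettl14. The libraries of letter B were high and those of letter A low, whichever hairpin they carried, by 5.62-fold in shCTR and 4.94-fold in shMettl14. Within a letter the log2 ratio was -0.13 in A and -0.32 in B. The fitted log2 fold change was -0.29 ± 1.04 (SE), ran from -1.85 to 1.43 when 1 library was left out, and was positive without shCTR B (1.43) or without shMettl14 A (0.45). The level of *Itga1* relative to *Itga11*, per exon length, was 0.357 and 0.0725 in shCTR and 0.604 and 0.114 in shMettl14, higher with the knockdown within each letter while the letters lay further apart than the hairpins.

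*Itga7* (chr10:128933818-128958282, plus strand), the laminin receptor subunit of muscle cells, had 18.6 and 19.6 CPM in shCTR and 10.5 and 16.4 CPM in shMettl14. Both knockdown libraries were below both controls. The log2 ratio was -0.83 in letter A and -0.25 in letter B, so most of the difference lay in letter A. The fitted log2 fold change was -0.51 ± 0.30 (SE), with an unadjusted p of 0.15 in edgeR's quasi-likelihood test. Markers of striated muscle, a tissue that also expresses *Itga7*, summed to 36.4 CPM in shCTR A, 20.03 in shCTR B, 12.8 in shMettl14 A and 20.7 in shMettl14 B, with *Tnnc2* at 0 in all libraries. *Acta1*, skeletal muscle actin, was the most abundant of them, at 15.6 and 15.7 CPM in shCTR and 10.3 and 18.3 CPM in shMettl14. All 8 of the 12 striated muscle markers that were tested had a negative log2 fold change, 6 of them within both letters, and *Myh4*, a fast skeletal myosin, had 5.503 and 0.278 CPM in shCTR and 0 in both shMettl14 libraries. The log2 fold change of *Itga7* was -0.54 without shCTR A, -0.47 without shCTR B, -0.22 without shMettl14 A and -0.86 without shMettl14 B. Both *Itga7* and the sum of striated markers were lowest in shMettl14 A. The 2 controls differed in that sum (36.4 and 20.03 CPM) and had *Itga7* at 18.6 and 19.6 CPM. The sum of the smooth muscle markers was also lowest in shMettl14 A, at 4571 CPM. The part of the striated markers in the value of *Itga7* was not tested. Among the smooth muscle markers, 7 of 10 were lower within both letters, *Acta2* among them (log2 fold change of -0.58 ± 0.21, SE). Their part in the value of *Itga7* was not tested. For both marker lists the share to compare is 27.6%, that of all tested genes lower within both letters.

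The RGD receptor alpha subunits changed little or went opposite ways in the letters. *Itga5* (chr15:103344286-103366763, minus strand), the alpha subunit of the main fibronectin receptor, had 402 and 328 CPM in shCTR and 307 and 364 CPM in shMettl14. Its log2 ratios were -0.39 in letter A and 0.15 in letter B. *Itgav* (chr2:83724397-83806916, plus strand) had 251 and 339 CPM in shCTR and 306 and 331 CPM in shMettl14, with log2 ratios of 0.29 and -0.03. *Itga8* (chr2:12106632-12301922, minus strand), the nephronectin receptor subunit of smooth muscle, had 40.7 and 49.1 CPM in shCTR and 42.6 and 47.0 CPM in shMettl14. Its knockdown libraries lay between the controls, and its mean was 44.9 ± 5.94 CPM (SD, n = 2) in shCTR and 44.8 ± 3.13 CPM (SD, n = 2) in shMettl14. The fitted log2 fold changes of these 3 genes ran from -0.12 (*Itga5*) to 0.11 (*Itgav*), each smaller than its SE.

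Over the 10 members, 2 were higher within both letters (*Itga1* and *Itgb8*), 5 were lower within both (*Itga7*, *Itga11*, *Itgb1*, *Itgb3* and *Itgb5*), and 3 were mixed. Of all tested genes 30.0% were higher and 27.6% lower within both letters. The hairpin groups did not overlap for 3 members, 2 with both knockdown libraries above the controls (14.7% of all tested genes) and 1 with both below (13.3% of all tested genes). Scaled to the library totals alone, without TMM, the median of all genes moved up by 0.11 on the log2 scale. *Itga8* and *Itgav* then also stood above the control within both letters, and *Itgb3* went from lower to mixed. The counts of members in a direction therefore depended on the scaling, while *Itga1*, *Itga5*, *Itga7*, *Itga11*, *Itgb1*, *Itgb5* and *Itgb8* had the same within-letter directions under both scalings.

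**Figure D2:**
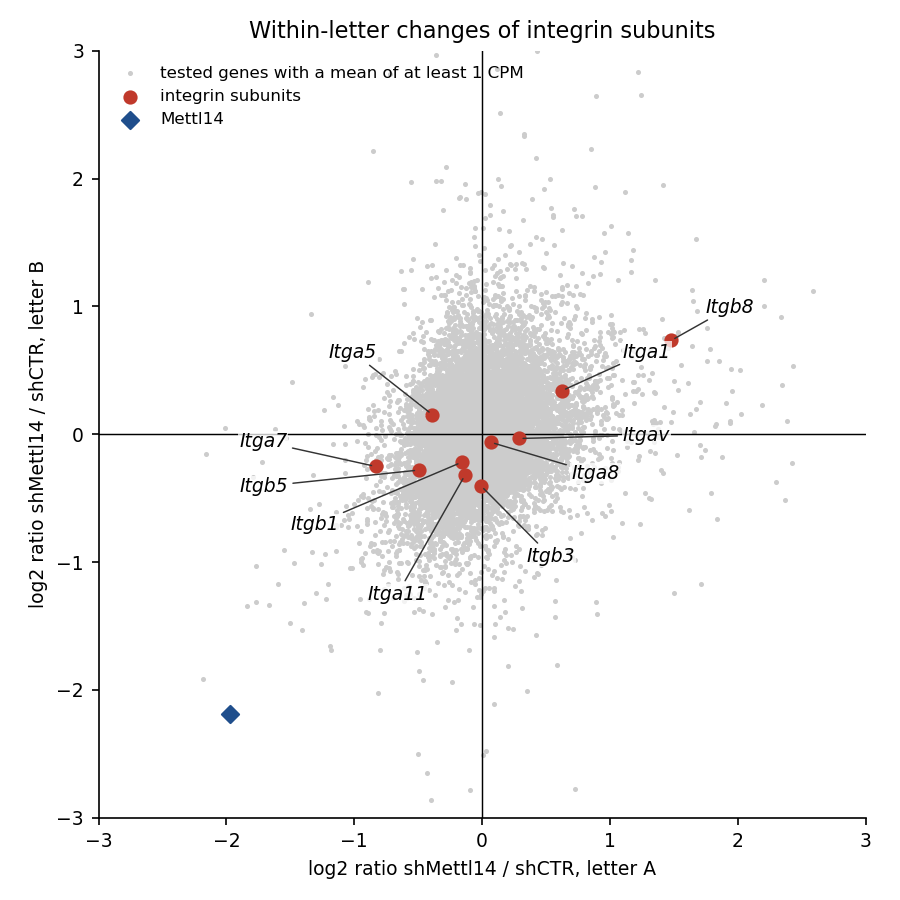
Log2 ratio of shMettl14 to shCTR within letter A (x axis) and within letter B (y axis), for tested genes with a mean of at least 1 CPM (grey), the 10 integrin subunits (red) and *Mettl14* (blue), with axes from -3 to 3. *Itgb8* and *Itga1* lie in the upper right quadrant, 5 members in the lower left, and *Mettl14* at -1.97 and -2.19.

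The difference between letters was larger than the difference between hairpins in 6 of the 10 members, against 64.2% of all tested genes. *Itga11* was the extreme of the set, at a log2 difference of B from A of 2.49 in shCTR and 2.30 in shMettl14, and *Itgb3* followed with 1.24 and 0.85. *Itgb5* went the other way, at -0.56 and -0.35. *Itgb8* differed by 1.03 between the letters in shCTR and by 0.28 in shMettl14. *Itga4*, an alpha subunit for fibronectin and VCAM-1 that is not a member, showed the same kind of split at 6.51 and 60.4 CPM in shCTR and 9.25 and 63.4 CPM in shMettl14. The endothelial markers summed to 2094 CPM in shCTR A, 1952 CPM in shMettl14 A, 2665 CPM in shMettl14 B and 4160 CPM in shCTR B. *Emcn*, an endothelial sialomucin, gave 2100 CPM of that sum against 649 CPM in shCTR A, while *Esam* (91.5 against 174 CPM) and *Tie1* (136 against 171 CPM) were lower in shCTR B. Fibroblast markers, of which 8 of 8 were tested, summed to 505 and 670 CPM in shCTR and to 543 and 636 CPM in shMettl14. Most of each sum was *Cd34* alone, at 414 and 498 CPM in shCTR and 449 and 505 CPM in shMettl14, so the sums mainly follow this 1 gene. *Dcn* was higher in letter B, at 68.3 and 160 CPM in shCTR and 72.3 and 120 CPM in shMettl14. *Pdgfra* (14.5 and 10.4 CPM in shCTR, 14.0 and 7.93 CPM in shMettl14) was lower in letter B. *Scara5* was lower there too (6.15 and 0.898 CPM in shCTR, 6.32 and 1.22 CPM in shMettl14). *Lum*, at 0.377 CPM or less, was at 0 in shCTR B. *Tcf21*, at 0.463 CPM or less, was at 0 in both libraries of letter B. The part of these markers in the integrin values was not tested.

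Per exon length, in TPM (counts per exon base, scaled to the library's sum), the levels of the members spanned 3 orders of magnitude. *Itgb1* averaged 2461 TPM (range 2070 to 2872 over the 4 libraries), *Itgb5* 418, *Itga5* 260, *Itgav* 105, *Itga11* 59.0, *Itgb3* 31.7, *Itga8* 22.4, *Itga1* 8.90, *Itga7* 7.35 and *Itgb8* 2.28 TPM (range 0.889 to 3.59). In this order the ranges of *Itgav* and *Itga11*, of *Itga11* and *Itgb3*, of *Itgb3* and *Itga8*, and of *Itga1* and *Itga7* overlapped. *Itgav* was nevertheless above *Itga11* in each of the 4 libraries. *Itga7* was above *Itga1* in both shCTR libraries (7.82 and 8.63 against 6.37 and 7.64 TPM). In both shMettl14 libraries *Itga7* was below *Itga1* (4.79 and 8.17 against 10.7 and 10.9 TPM). *Itgb3* was above *Itga11* in both libraries of letter A and below it in both of letter B. *Itga8* was above *Itgb3* in shMettl14 A only. The other neighbours did not overlap, and the order was the same when the length of a single coding transcript was used. *Itga3*, a laminin receptor subunit outside the set, was the fourth of all integrin genes at 182 TPM. The beta subunit *Itgb1* was present at 3.30 to 3.75 times the summed TPM of the 12 alpha subunits that pair with it.

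**Figure D3:**
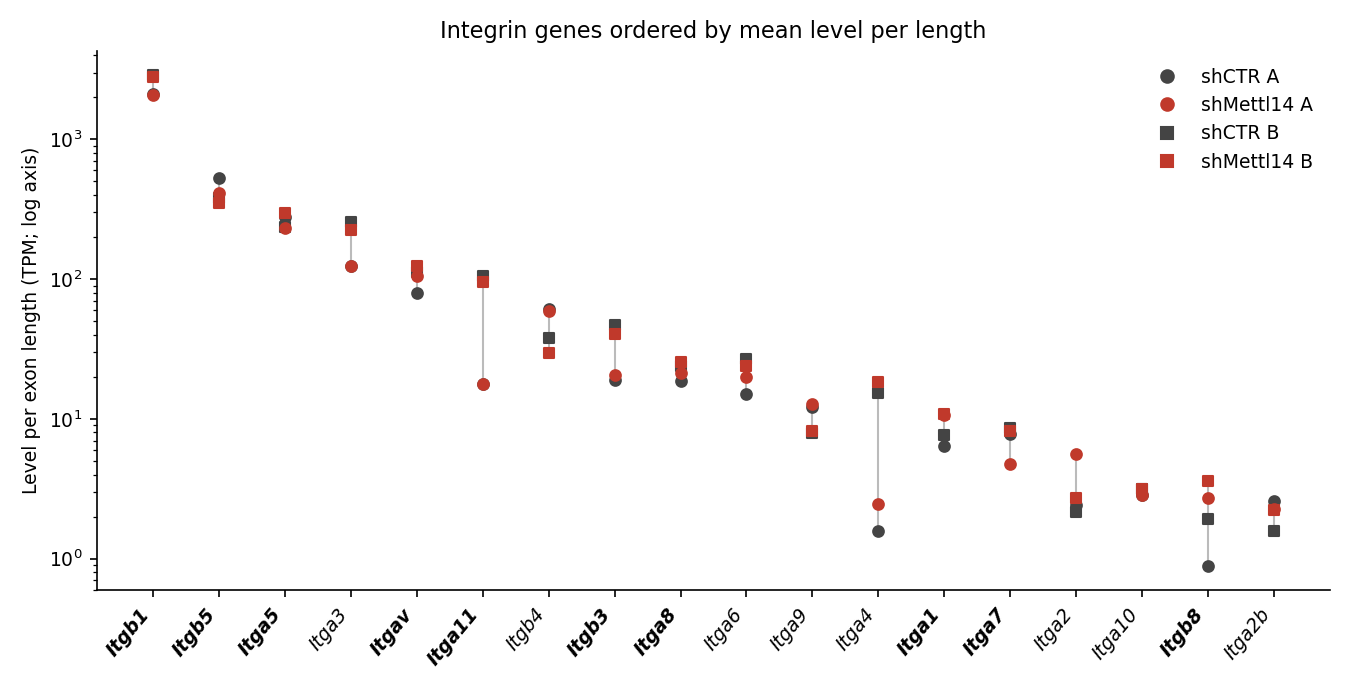
Level per exon length (TPM, log axis) of the integrin genes with a mean of at least 1 TPM, in order of their mean over the 4 libraries, with members in bold. Circles are letter A, squares letter B, grey shCTR and red shMettl14, and a line joins the lowest and highest library. *Itgb1* stands highest at 2461 TPM on average, *Itgb8* is the lowest member at 2.28, and *Itga11* and *Itga4* are spread by letter.

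Of the beta subunits that pair with *Itgav*, *Itgb1* was by far the most abundant. Among the others in the set (*Itgb3*, *Itgb5* and *Itgb8*), *Itgb5* made up 88.5% to 96.4% of the summed TPM. *Itgb3* made up 3.45% and 11.0% in shCTR and 4.74% and 10.2% in shMettl14, with letter B above letter A in both. *Itgb8* made up 0.161% and 0.448% in shCTR and 0.625% and 0.909% in shMettl14, so its share was higher in both knockdown libraries and remained the smallest of the 3.

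Promoter sequence from the RefSeq table used here (GRCm38.p6, 250 bases before to 50 after the start of transcription) was matched for 8 of the 10 members, all but *Itga7* and *Itgb3*. Those of *Itga1* and *Itgb8* are shown because these 2 members were higher than the control within both letters. Each runs 5′ to 3′ on the gene's strand, and the capitals mark the motif letters found. The *Itgb8* window lies wholly inside the gene's GENCODE bounds given above, so the RefSeq start used for it lies downstream of the GENCODE one.
Itga1, chr13:115101915-115102214, minus strand: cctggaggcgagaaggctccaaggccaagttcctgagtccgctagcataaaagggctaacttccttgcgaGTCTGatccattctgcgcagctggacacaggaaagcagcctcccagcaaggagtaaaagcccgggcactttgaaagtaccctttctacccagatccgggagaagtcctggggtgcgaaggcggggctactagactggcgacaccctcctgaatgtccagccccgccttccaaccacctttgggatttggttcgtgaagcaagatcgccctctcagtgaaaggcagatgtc
Itgb8, chr12:119238227-119238526, minus strand: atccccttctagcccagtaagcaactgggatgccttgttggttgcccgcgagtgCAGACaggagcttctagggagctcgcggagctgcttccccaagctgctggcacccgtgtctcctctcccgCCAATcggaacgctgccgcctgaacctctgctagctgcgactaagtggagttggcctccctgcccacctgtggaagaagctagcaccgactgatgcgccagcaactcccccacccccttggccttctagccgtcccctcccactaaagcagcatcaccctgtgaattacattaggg
On both strands these windows were searched for the SP1 box GGGCGG, the TATA box TATAAA, the TEAD element CATTCC, the CCAAT box, the SMAD element CAGAC, both AP-1 forms (TGACTCA and the form TGAGTCA), and the CArG box, the site of serum response factor. The *Itga1* window held CAGAC once, on the opposite strand, and none of the others. The *Itgb8* window held CAGAC once and CCAAT once. CAGAC stands in 49.6% of the 32851 promoters of this length and CCAAT in 37.4%, while the CArG box stands in 1.63%.

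Of the 17 other integrin genes, 13 were tested, and 2 were higher and 5 lower within both letters, or 4 and 4 with library totals alone. The 2 and 5 are 15.4% and 38.5% of those tested, against 30.0% and 27.6% of all tested genes. None passed an adjusted p of 0.05 in edgeR's quasi-likelihood test. *Itgb7*, a leukocyte subunit, had the only unadjusted p under 0.05 among them (0.029), at 0.118 to 0.639 CPM. Among those with a mean of at least 1 CPM and the same direction in both letters, the highest fold changes were those of *Itga2*, a collagen receptor subunit (log2 fold change of 0.73 ± 0.47, SE), and *Itga4* (0.12 ± 1.26, SE), and the lowest were those of *Itgb4* (-0.30 ± 0.46, SE) and *Itga3* (-0.27 ± 0.42, SE), both subunits of laminin receptors. *Itga2* was 2.13-fold higher within letter A and 1.11-fold higher within letter B. The leukocyte subunits *Itgad*, *Itgam*, *Itgax* and *Itgb2l* did not pass the filter on low counts.

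Among 27 genes for integrin ligands, 26 were tested, with 8 higher and 9 lower within both letters and a median log2 fold change of -0.02. The 8 and 9 are 30.8% and 34.6% of those tested, against 30.0% and 27.6% of all tested genes. With library totals alone 13 were higher and 6 lower. None passed the adjusted threshold in edgeR's quasi-likelihood test. *Col3a1*, a fibrillar collagen, had 620 and 480 CPM in shCTR and 822 and 955 CPM in shMettl14, a log2 fold change of 0.69 ± 0.22 (SE) with an unadjusted p of 0.028 in that test. Both knockdown libraries were above both controls. *Npnt*, which encodes nephronectin, the ligand of the *Itga8* receptor, had 178 and 313 CPM in shCTR and 97.1 and 171 CPM in shMettl14, with log2 ratios of -0.88 and -0.87 within the letters. *Spp1*, which encodes osteopontin, a ligand of *Itgav* receptors, had 34.6 and 29.1 CPM in shCTR and 23.1 and 12.0 CPM in shMettl14. *Tgfb1*, whose latent product is bound by *Itgav* with *Itgb8*, had 64.8 and 60.9 CPM in shCTR and 41.0 and 39.6 CPM in shMettl14, with a log2 fold change of -0.64 ± 0.19 (SE) and an unadjusted p of 0.018 in edgeR's quasi-likelihood test. *Postn*, for periostin, was higher within both letters (log2 fold change of 0.51 ± 0.33, SE), and *Ctgf* was lower in both (-0.64 ± 0.18, SE).

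Of 30 genes for the adaptors and kinases that tie integrins to actin, 29 were tested, and 4 were higher and 18 lower within both letters. The 18 are 62.1% of those tested, against 27.6% lower within both letters among all tested genes. The median log2 fold change of the 29 was -0.16, and none passed the adjusted threshold in edgeR's quasi-likelihood test. *Tgfb1i1*, the focal adhesion protein HIC-5, had 205 and 206 CPM in shCTR and 147 and 126 CPM in shMettl14, a log2 fold change of -0.59 ± 0.20 (SE) with an unadjusted p of 0.029 in the same test. *Tns2*, a tensin, had a log2 fold change of -0.47 ± 0.22 (SE). *Lims1*, which encodes PINCH-1, a partner of integrin-linked kinase, stood at the other end with 0.35 ± 0.19 (SE), and *Tln2*, a talin, had 0.18 ± 0.21 (SE). With library totals alone 14 of the 29 were lower and 8 higher within both letters.

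**Figure D4:**
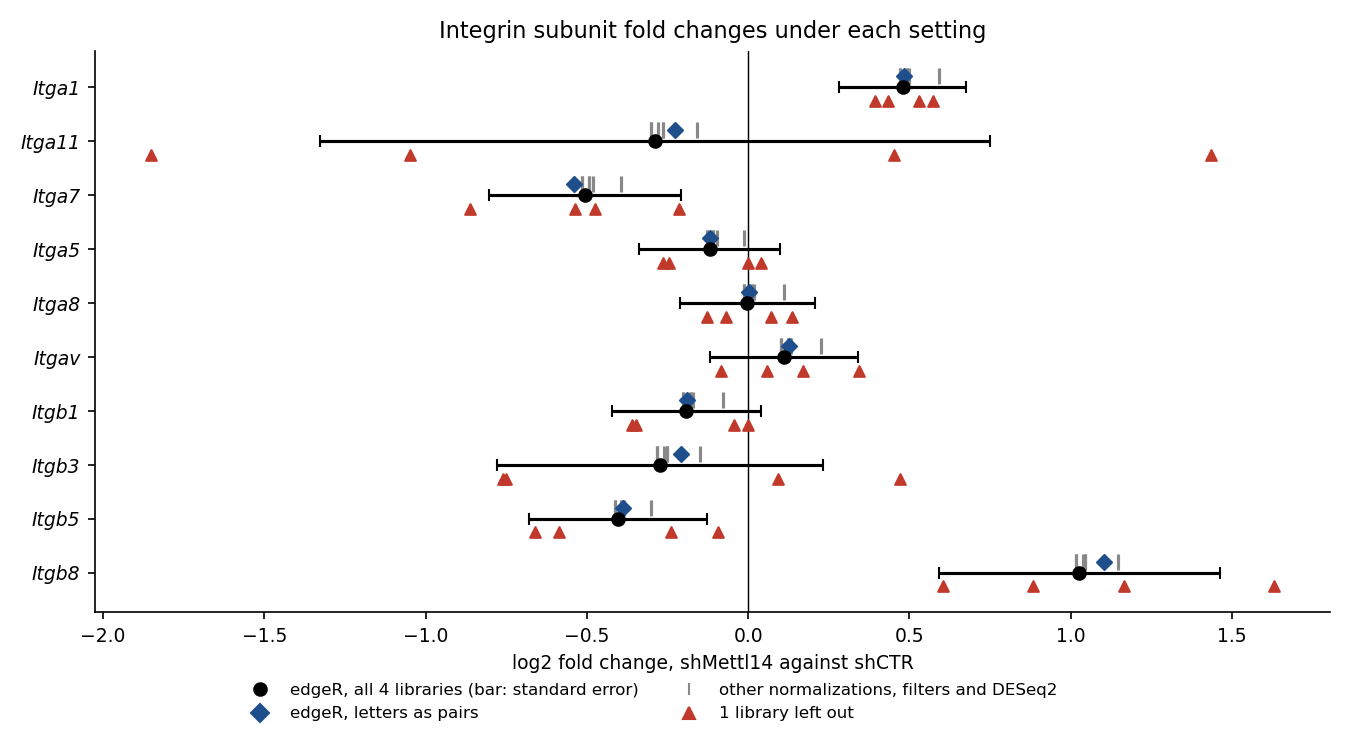
Log2 fold change of each integrin subunit, shMettl14 against shCTR, under each setting. Black points are the edgeR fit on all 4 libraries with its standard error, blue diamonds the fit with letters as pairs, grey ticks the other normalizations, filters and DESeq2, and red triangles the fits with 1 library left out. *Itgb8* and *Itga1* stay above 0 and *Itga7* and *Itgb5* below 0 under each setting shown, while *Itga11* runs from -1.85 to 1.43.

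Leaving out each library in turn kept the direction of *Itga1* (0.39 to 0.57), *Itgb8* (0.60 to 1.63), *Itga7* (-0.86 to -0.22) and *Itgb5* (-0.66 to -0.09). The low end for *Itgb8* came without shCTR A and the high end without shCTR B, and for *Itgb5* the value nearest 0 came without shCTR A. *Itgb1* kept a negative sign but was at -0.0013 without shCTR B. The other 5 members changed sign in at least 1 of these fits. With 2 libraries against 2, an exact permutation test of a single gene cannot give a two-sided p below 0.333, so a test of a single member outside the model was not made.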

How the data were processed

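The integrin subunits and the lists of ligands, adaptors and cell markers were chosen with earlier results of these data known. Poly-A RNA of 4 libraries was prepared with a stranded kit. According to the submitters' processing notes and the study's methods, the authors mapped paired reads to mm10 (Ensembl annotation) with STAR, counted them per gene with featureCounts and named DESeq2 for their comparison; tool versions and the treatment of multiply mapping reads are not given in the sources used here. The deposited values are raw counts per gene symbol, not normalized. From them, edgeR 4.0.16 (R 4.3.3) gave the main test (TMM, filterByExpr, robust quasi-likelihood fit, no block, Benjamini-Hochberg adjustment over 18916 genes, threshold 0.05); DESeq2 1.42.0 was an alternative. Groups came from the treatment label and letters from the titles. Ratios within letters used log2 CPM with a prior count of 2. Levels per length used the union of exons in GENCODE M21 (GRCm38), found for 95.5% of symbols. Promoters came from RefSeq. Named genes outside the members were, per list, the 2 highest and 2 lowest fold changes among genes with a mean of at least 1 CPM and 1 direction in both letters. *Itgb7*, *Tgfb1*, *Ctgf*, *Cdh5*, *Acta2*, *Acta1*, *Myh4*, *Emcn*, *Esam*, *Tie1*, *Cd34*, *Dcn*, *Pdgfra*, *Scara5* and the markers and integrin genes given as at 0 or not tested were named after their values were seen. Other normalizations and filters, the letters as a block and each library left out were tried. One further leukocyte marker is not reported here. The fits were tested on simulated data, where, once the letters differed as measured, the edgeR fit without a block called none of the changed genes, DESeq2 called some and the fit with the block called most. There the letter difference of a gene was made the same under both hairpins, as the block assumes. The simulation therefore cannot show whether the block suits the real libraries.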

Additional observations from a re-analysis of the deposited data

How the results depend on the processing

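No integrin subunit passed an adjusted p of 0.05 in any fit; over the alternatives their lowest adjusted p was 0.178 (*Itgb8*, letters as a block). The number of genes called over all 18916 was 4 in DESeq2 and 9 with the letters as a replicate block, against 0, and 0 to 1 with 1 library left out. Genes at an unadjusted p under 0.05 numbered 1941 with the block, against 315, and 78 to 1399 with 1 library left out, where a lone library is assumed to vary like those of the other group. Members at an unadjusted p under 0.05 numbered 1 in DESeq2 (387 of all genes), 2 with library totals only (337 of all genes), 1 without the filter on low counts (471 of 29127 genes), 4 with the block (*Itgb8*, *Itga1*, *Itga7* and *Itgb5*; 10.3% of all genes) and 0 to 2 with 1 library left out, against 0. The block takes the difference between letters out of the spread by construction; for the other settings the cause was not tested. The letters share only a letter: libraries of one letter deviated together from their group means (correlation across genes of 0.58), but nothing says what a letter marks. The block left the fold change of *Mettl14* at -2.08 with its adjusted p at 0.0039, and DESeq2 gave -2.09 and 1.7e-09. The fold change of *Itga8* (log2, -0.0024) was 0.0092 with at least 10 counts in every library, 0.11 with library totals only, 0.012 without the filter, 0.0021 with the block and 0.018 with upper-quartile normalization. With 1 library left out it ran from -0.13 to 0.14, that of *Itga5* from -0.26 to 0.039 (the latter without shCTR A), of *Itga11* from -1.85 to 1.43, of *Itgav* from -0.084 (without shCTR A) to 0.34 and of *Itgb3* from -0.76 to 0.47. With library totals only, genes higher within both letters numbered 4 among members (against 2), 4 among other integrins (against 2), 13 among ligands (against 8) and 8 among adaptors (against 4). The levels per length were also computed with the length of a single coding transcript, an alternative added after seeing the data. Those of *Itga1*, *Itga7* and *Itgav* were then higher and those of the other members lower. *Itgb3* went from 31.7 to 21.5 TPM, *Itga11* from 59.0 to 40.5 and *Itga7* from 7.35 to 9.83. The lowest count of a member in a library was 329 (*Itgb8*, shCTR A).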
